A study of Mus musculus with 4 samples.

Results

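The lysosome and its proton pump are encoded here by 37 mRNAs, taken by gene symbol from a list of members by role. The list holds 18 genes of the vacuolar ATPase (V-ATPase), 11 lumenal enzymes, 3 lumenal proteins that are not enzymes and 5 proteins of the lysosomal membrane. All 37 were found among the 31053 genes of the count tables, and all 37 passed the filter on low counts that left 12336 genes for testing. The cells were primary cortical neurons cultured from wild-type (WT) mice. RNA was crosslinked to protein, trimmed with RNase I and pulled down with an antibody to RPS2, which belongs to the small subunit of the ribosome (eCLIP, enhanced crosslinking and immunoprecipitation), and total RNA was set aside from the same samples ahead of the pulldown. There were 2 libraries of RPS2 IP and 2 of total RNA, numbered 1 and 2 in each group, and the study read IP over total RNA as a translational efficiency per gene. The labels list rRNA depletion as the treatment for IP and no treatment for total RNA, so an effect of depletion and an effect of the pulldown cannot be told apart. Nothing beyond the titles says that replicates 1 and 2 were separate cultures. The p-values rest on these libraries alone, through a trend of dispersion shared by all genes and not each gene's own spread.

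Libraries held 4899718 to 16460545 counts, with the IP libraries the deeper ones. Levels in CPM are counts per 1e6 of a library size that was multiplied by a scaling factor (TMM). They therefore do not sum to 1e6 per library. Over all genes tested they summed to 1174200 and 804150 in total RNA 1 and 2, and to 1187900 and 891500 in IP 1 and 2. Comparisons of CPM between replicates depend on this scaling. Neuronal markers summed to between 3953 and 4561 CPM in the 4 libraries, so mRNAs of the labelled cell type were present. These sums do not give the share of neurons, since astrocyte markers summed to as much as 3625 CPM in IP 1. Markers of other cells differed between the replicates. The 10 microglial markers summed to 140.1 CPM in total RNA 1 and 7.4 CPM in total RNA 2 (126.6 and 9.52 in IP 1 and IP 2), with 10 of 10 higher in replicate 1 and 4 at 0 in replicate 2. The 8 astrocyte markers summed to 2961 and 1412 CPM in total RNA and to 3625 and 1556 in IP, with 8 of 8 higher in replicate 1. The 6 vascular markers summed to 36.96 and 9.21 CPM in total RNA and to 32.5 and 7.37 in IP, and the 8 oligodendrocyte markers to between 50.3 and 62.5 CPM in the 4 libraries.

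The V-ATPase is a rotary motor. Its V1 sector sits in the cytosol and splits ATP, and its V0 sector sits in the membrane and carries protons into the lysosome, or in neurons also into synaptic vesicles, where the proton gradient drives the loading of transmitter. The acid lumen activates a set of hydrolases that digest protein, lipid and sugar chains, and the membrane proteins shield the membrane, move cholesterol and release calcium. Many of these genes carry a short palindrome in their promoters, the CLEAR element, which is bound by the transcription factor TFEB and its relatives. Loss of single lysosomal genes causes storage diseases that often strike neurons first.

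IP was compared with total RNA within each replicate number in a fit over all genes. Ratios are log2 values of IP over total RNA with their standard error, and a gene was called at an adjusted p under 0.05. The standard error comes from the test statistic of the fit and its shared dispersion. It can therefore be smaller than the spread of a gene's own pairs. Of the 37 mRNAs, 14 were higher in IP, 0 were lower and 23 did not pass the test. Over all genes tested, 818 were higher (6.63%) and 931 were lower (7.55%). At an unadjusted p under 0.05 edgeR put 19 members higher, against 12.9% of all genes, and 0 lower, against 13.2%. DESeq2 called 0 members and 382 of all genes lower. It left 7653 of the 12336 genes, 3 members among them, without an adjusted p, so its 0 says little about the members. The median ratio of the members was 0.24 (0.27 in pair 1 and 0.16 in pair 2), against 0.011 over all genes. The ratio was above 0 in both pairs for 26 members, against 34.3% of all genes, and below 0 in both pairs for 1, Gaa. For 10 members both IP libraries lay above both total RNA libraries, against 16.9% of all genes, and 0 members lay below in that way.

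The calls rest on the pairing. The biological coefficient of variation was 7.93% with the replicate block and 29.7% with the libraries taken as unpaired. The unpaired edgeR fit called 0 of 37 members and 0 of all genes, with 1 member, Atp6v1g2, and 349 of all genes at an unadjusted p under 0.05. Members are abundant, so the comparison was repeated where no library had under 100 counts. That held for 5003 genes and 34 members, of which 13 members were higher against 9.37% of those genes, with medians of 0.22 and -0.061.

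**Figure D1:**
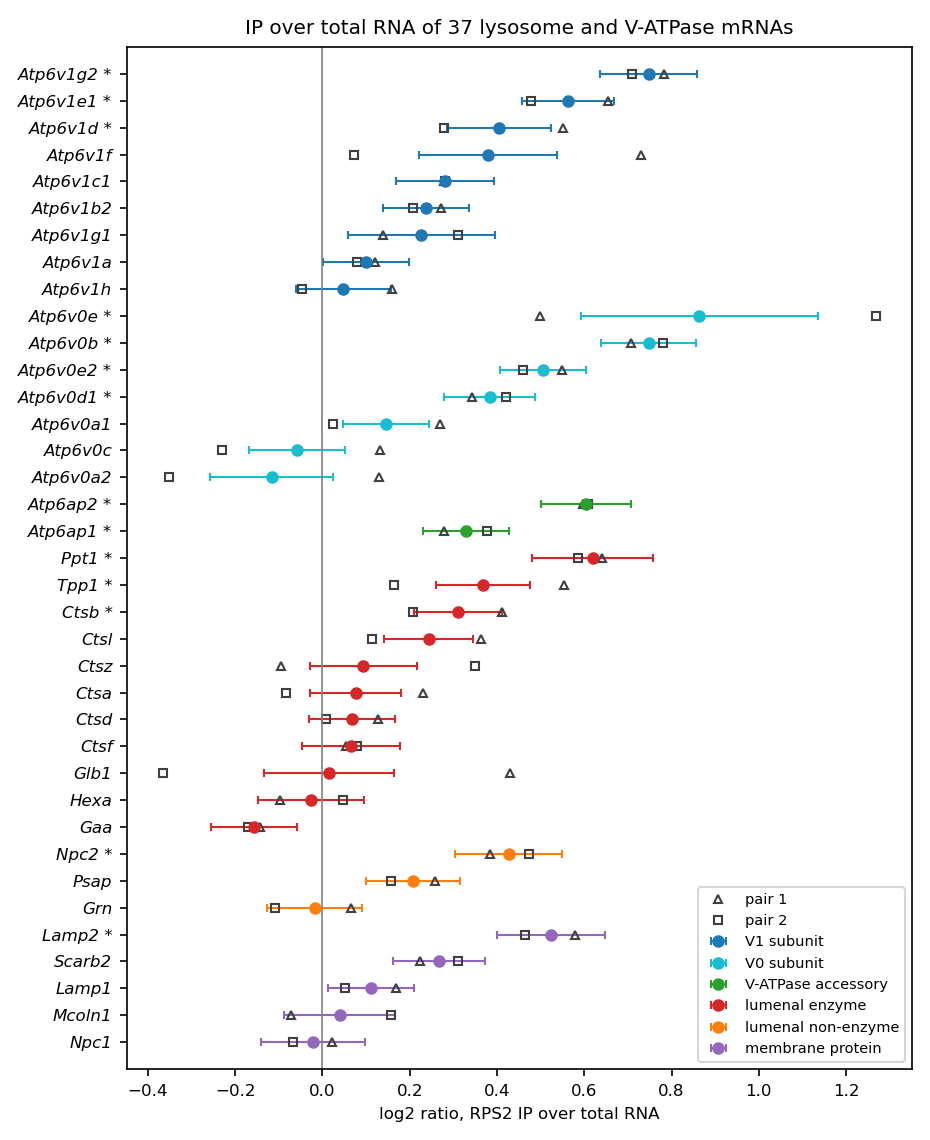
Log2 ratio of RPS2 IP over total RNA for each of the 37 mRNAs, grouped by role. Filled circles with bars give the blocked fit and its standard error, open triangles and squares give replicate pairs 1 and 2, and an asterisk marks an adjusted p under 0.05. The 14 called members all lie to the right of 0, and Gaa is the one gene with both pairs to the left.

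In the cytosolic V1 sector 3 of 9 mRNAs were higher in IP, with a median of 0.28. Atp6v1g2, the brain-enriched isoform of the G subunit in the outer stalks that hold the motor still, stood at 110.5 and 102.3 CPM in IP 1 and IP 2 and at 64.1 and 62.5 CPM in total RNA 1 and 2. Both IP libraries were well above both total RNA libraries, and the replicates of each group lay close together. The ratio was 0.75 ± 0.11, a fold of 1.68 (adjusted p = 5.64e-09), with 0.78 in pair 1 and 0.71 in pair 2. Atp6v1e1, the E subunit of the same outer stalks, stood at 130.9 and 173.0 CPM in IP and at 83.1 and 124.1 in total RNA. Replicate 2 was higher in both groups, and the lower IP library was still above the higher total RNA library. Its ratio was 0.56 ± 0.11 (adjusted p = 6.64e-06). Atp6v1d, of the central rotor shaft, had 55.9 and 72.5 CPM in IP against 38.1 and 59.7 in total RNA, with a ratio of 0.40 ± 0.12 (adjusted p = 0.0089). IP 1 lay under total RNA 2, so its groups overlap. The call was lost without the pairing, with an offset for GC content and length (0.17, adjusted p = 0.46), under scaling by total counts alone (adjusted p = 0.15) and in DESeq2 (adjusted p = 0.19).

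The catalytic core of V1 was not called. Atp6v1a, which carries the catalytic sites, had 252.8 and 432.2 CPM in IP and 232.5 and 408.8 in total RNA, and Atp6v1b2, its partner in the ring, had 298.5 and 545.8 in IP and 247.4 and 472.7 in total RNA. In both genes the gap between replicates was several times the gap between IP and total RNA. The ratios were 0.10 ± 0.099 for Atp6v1a and 0.24 ± 0.099 for Atp6v1b2 (adjusted p = 0.57 and 0.088). Atp6v1c1 and Atp6v1h, which help couple and regulate the sectors, had ratios of 0.28 ± 0.11 and 0.048 ± 0.11 (adjusted p = 0.075 and 0.84). Atp6v1f, of the rotor shaft, had a ratio of 0.38 ± 0.16 (adjusted p = 0.09), with 0.73 in pair 1 and 0.073 in pair 2. Its values are less certain than most, since 25.1% of its longest transcript also occurs nearly unchanged (at least 95% identity) in another gene. Reads that aligned at several loci were not counted, and the number lost from such stretches was not measured.

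In the membrane sector V0 4 of 7 mRNAs were higher in IP, with a median of 0.38. Atp6v0b, a subunit of the proton-carrying ring, stood at 104.8 and 157.6 CPM in IP and at 64.1 and 91.7 in total RNA. Every IP value was above every total RNA value although replicate 2 was higher in both groups. The ratio was 0.75 ± 0.11, a fold of 1.68 (adjusted p = 1.94e-09), with 0.71 and 0.78 in the pairs. Atp6v0d1, which joins the ring to the rotor shaft, had 120.0 and 192.0 CPM in IP and 94.6 and 143.5 in total RNA, a ratio of 0.38 ± 0.10 (adjusted p = 0.0037) with overlapping groups. It was not called with the GC content and length offset (0.21, adjusted p = 0.26), under scaling by total counts alone or in DESeq2. Atp6v0c, the main ring subunit, had 81.3 and 92.8 CPM in IP and 74.2 and 108.8 in total RNA. Its pairs went opposite ways, 0.13 and -0.23, and the fitted ratio was -0.058 ± 0.11 (adjusted p = 0.80). Atp6v0c shares 15.2% of its longest transcript with processed copies, and 927 of its exonic bases overlap another gene.

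The 2 accessory subunits were both higher in IP. They sit at the membrane sector and help its assembly, and Atp6ap2 is also known as the prorenin receptor. Atp6ap2 stood at 168.6 and 226.9 CPM in IP against 111.3 and 148.8 in total RNA, a ratio of 0.60 ± 0.10 (adjusted p = 4.72e-07) that came out at 0.60 and 0.61 in the pairs. Atp6ap1 stood at 348.4 and 408.7 CPM in IP against 287.0 and 314.4 in total RNA, a ratio of 0.33 ± 0.098 (adjusted p = 0.0097). Neither gene's groups overlapped. With an offset for GC content and length neither was called, at 0.24 for Atp6ap2 (adjusted p = 0.15) and 0.23 for Atp6ap1 (adjusted p = 0.17), and Atp6ap1 was also not called under scaling by total counts alone or in DESeq2. Atp6ap2 shares 18.8% of its longest transcript with a near-identical copy.

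For 3 positions of the V-ATPase the list held a pair of isoforms. These differences were described and not tested. For the a subunit, which lines the proton path, Atp6v0a1 was 15.7 to 25.9 times as abundant per kb of exon as Atp6v0a2 across the 4 libraries, and the ratios were 0.15 ± 0.099 and -0.12 ± 0.14 (adjusted p = 0.37 and 0.66). For the G subunit, Atp6v1g2 was 1.36 to 2.24 times as abundant per kb as the widely expressed Atp6v1g1, whose ratio was 0.23 ± 0.17 (adjusted p = 0.42). The log2 ratio of Atp6v1g2 exceeded that of Atp6v1g1 by 0.64 in pair 1 and 0.40 in pair 2, but 31.5% of the longest Atp6v1g1 transcript occurs in near-identical copies. For the small e subunit, Atp6v0e2 was 44.9 to 95.8 times as abundant per kb as Atp6v0e, and both were called. Atp6v0e2 stood at 416.6 and 363.9 CPM in IP and 284.6 and 264.5 in total RNA, a ratio of 0.50 ± 0.099 (adjusted p = 1.77e-05). Atp6v0e had the highest ratio of all members, 0.86 ± 0.27 (adjusted p = 0.015), from the lowest counts, 171 and 105 reads in IP and 39 and 23 in total RNA, and its pairs were far apart at 0.50 and 1.27. It was not called with the GC content and length offset (0.68, adjusted p = 0.11), and Atp6v0e2 was not called under scaling by total counts alone.

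**Figure D2:**
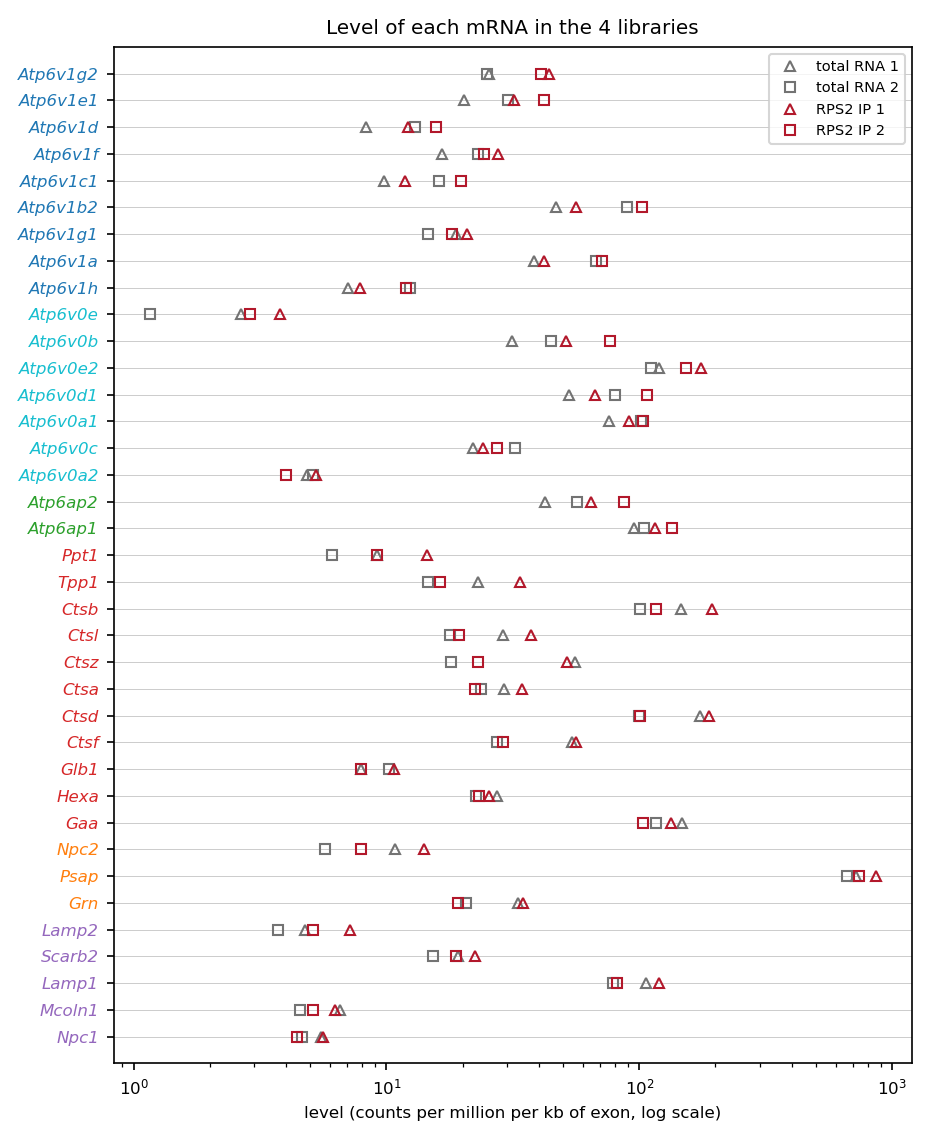
Level of each mRNA in CPM per kb of exon on a log scale, in the order and group colours of the ratio plot. Red symbols are RPS2 IP and grey symbols total RNA, triangles are replicate 1 and squares replicate 2. Psap lies far to the right at 664 to 861, Atp6v0e far to the left at 1.16 to 3.79, and for many genes the replicate moves the point further than the pulldown does.

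Among the lumenal enzymes 3 of 11 mRNAs were higher in IP, and the median of 0.076 turned to -0.0068 when libraries were scaled by total counts alone. Ppt1, a thioesterase that strips fatty acids from proteins, had 52.9 and 33.7 CPM in IP and 33.8 and 22.4 in total RNA, a ratio of 0.62 ± 0.14 (adjusted p = 2.44e-04). Tpp1, a peptidase that removes tripeptides, had 174.8 and 84.3 CPM in IP and 118.9 and 75.3 in total RNA, a ratio of 0.37 ± 0.11 (adjusted p = 0.0077) with 0.55 in pair 1 and 0.16 in pair 2. Loss of either enzyme causes a childhood form of neuronal ceroid lipofuscinosis. Ctsb, a cysteine protease and the most abundant enzyme mRNA by CPM, had 1174 and 702.5 CPM in IP and 881.6 and 608.5 in total RNA, a ratio of 0.31 ± 0.10 (adjusted p = 0.02). In all 3 genes IP 2 lay under total RNA 1, so the groups overlap, and each pair still had IP above its own total RNA. None of the 3 was called in DESeq2, and Tpp1 and Ctsb were not called under scaling by total counts alone.

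The other 8 enzymes did not pass the test. Of the 11, 0 had both IP libraries above both total RNA libraries, against 16.9% of all genes. The 11 genes are too few to tell 0 from that share. Among the cathepsins, Ctsl had a ratio of 0.24 ± 0.10 (adjusted p = 0.093), and Ctsa, Ctsd, Ctsf and Ctsz lay between 0.065 and 0.093. Ctsd, the aspartic protease of the lumen, stood at 445.0 and 236.2 CPM in IP and 407.5 and 235.1 in total RNA, so IP and total RNA were close within each pair and the replicates were not. Ctsd overlaps another gene over 808 exonic bases. Gaa, which breaks down glycogen, stood at 638.2 and 495.0 CPM in IP and at 705.2 and 557.2 in total RNA. It was the lowest of all members at -0.16 ± 0.099 (adjusted p = 0.32), with -0.14 and -0.17 in the pairs. Glb1, a galactosidase, had 0.43 in one pair and -0.37 in the other around a ratio of 0.015 ± 0.15 (adjusted p = 0.97), and Hexa, a hexosaminidase subunit that clears gangliosides, had a ratio of -0.026 ± 0.12 (adjusted p = 0.93).

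Psap, whose product is cut into the saposins that present lipids to the enzymes, was the most abundant mRNA of the list. It stood at 2362 and 2031 CPM in IP and 1975 and 1822 in total RNA, and made up 24.4% to 25.6% of the members' summed CPM in every library. Both IP libraries lay above both total RNA libraries, but the ratio of 0.21 ± 0.11 did not pass (adjusted p = 0.20). Npc2, a soluble carrier of cholesterol, had 76.8 and 43.2 CPM in IP and 58.8 and 31.1 in total RNA, a ratio of 0.43 ± 0.12 (adjusted p = 0.0064) with overlapping groups, which was not called in DESeq2 or under scaling by total counts alone. Grn, the precursor of the granulins, had 120.2 and 66.5 CPM in IP and 114.9 and 71.7 in total RNA, a ratio of -0.018 ± 0.11 (adjusted p = 0.95).

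Among the membrane proteins 1 of 5 mRNAs, Lamp2, was higher in IP, and the median was 0.11. Lamp2, a glycoprotein that lines the membrane and takes part in autophagy, stood at 68.3 and 49.0 CPM in IP against 45.6 and 35.5 in total RNA, with every IP value above every total RNA value. Its ratio was 0.52 ± 0.12 (adjusted p = 5.66e-04), not called in DESeq2. Its relative Lamp1 had 321.0 and 219.1 CPM in IP and 285.5 and 211.2 in total RNA, and a ratio of 0.11 ± 0.099 (adjusted p = 0.51). Scarb2, the receptor that brings glucocerebrosidase to the lysosome, had a ratio of 0.27 ± 0.11 (adjusted p = 0.07). The calcium channel gene Mcoln1 and the cholesterol exporter gene Npc1 had ratios of 0.039 ± 0.13 and -0.023 ± 0.12 (adjusted p = 0.89 and 0.94).

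Set side by side, 9 of 18 V-ATPase mRNAs and 5 of the other 19 were higher in IP. The V-ATPase median was 0.35, with 0.31 and 0.30 in the pairs, and the enzyme median was 0.23 in pair 1 and 0.079 in pair 2. The difference of the medians, V-ATPase minus enzymes, was 0.28 in the fit, 0.079 in pair 1 and 0.22 in pair 2, so its size depended on the pair. The V1 median was under the V0 median by 0.063 in pair 1 and 0.14 in pair 2. Median GC content was 49.96% for V-ATPase transcripts, 55.1% for the enzymes and 48.95% for the membrane proteins, whose median ratio was 0.11. Median exonic length was 3322.5, 3674 and 7555 bases in the same order. Across all genes tested the ratio fell with GC content (Spearman rho = -0.315 over 12328 genes, and -0.371 over the members). With an offset for GC content and length, 9 members were higher against 3.8% of all genes and 0 were lower against 3.1%. The V-ATPase then had 4 of 18 called and a median of 0.19. The other 19 members had 5 called and a median of 0.14, against 0.093 without the offset. Among those 19, the enzymes had 3 called and a median of 0.066, and V-ATPase minus enzymes was 0.12. V-ATPase minus membrane proteins was 0.24 in the fit and 0.046 with the offset. Whether GC content or length has a part in the class differences was not tested.

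On the TMM-scaled CPM, the mRNAs of the pump and those of the lumen differed in opposite directions between the replicates. The TMM factors of replicates 1 and 2 were 0.852 and 1.24 in total RNA and 0.842 and 1.12 in IP. The direction within a class therefore depends on this scaling, which was not varied here. The gap between classes does not depend on it. In total RNA the log2 ratio of replicate 1 over replicate 2 had a median of -0.49 for the V-ATPase, with 4 of 18 above 0, and of 0.59 for the enzymes, with 10 of 11 above 0. The 3 lumenal non-enzymes and the 5 membrane proteins were all higher in replicate 1, with medians of 0.68 and 0.36. IP showed the same order, with -0.30 for the V-ATPase and 0.74 for the enzymes. Summed CPM of the V-ATPase over that of the enzymes was 0.833 and 1.68 in total RNA 1 and 2, and 0.928 and 1.93 in IP 1 and 2. The replicate difference in this ratio was therefore larger than the IP difference within either pair.

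Single genes show the size of it on the same scale. Ctsz, a carboxypeptidase, had 79.9 CPM in total RNA 1 and 26.0 in total RNA 2, while Atp6v1b2 went from 247.4 to 472.7. The microglial and astrocyte markers described above were higher in the same replicate as the enzymes. On the TMM-scaled CPM, the summed neuronal markers were at 0.867 times their replicate 2 level in total RNA 1 and at 1.02 times in IP 1. Of the 8 neuronal markers, 4 were higher in replicate 1 in total RNA and 4 in IP. Within the pairs, IP over total RNA was 0.904 and 1.29 for the summed microglial markers and 1.22 and 1.10 for the astrocyte markers. The part of these other cells in the members' levels and ratios was not tested, and in bulk RNA fewer cells of a type and less RNA per cell cannot be told apart.

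**Figure D3:**
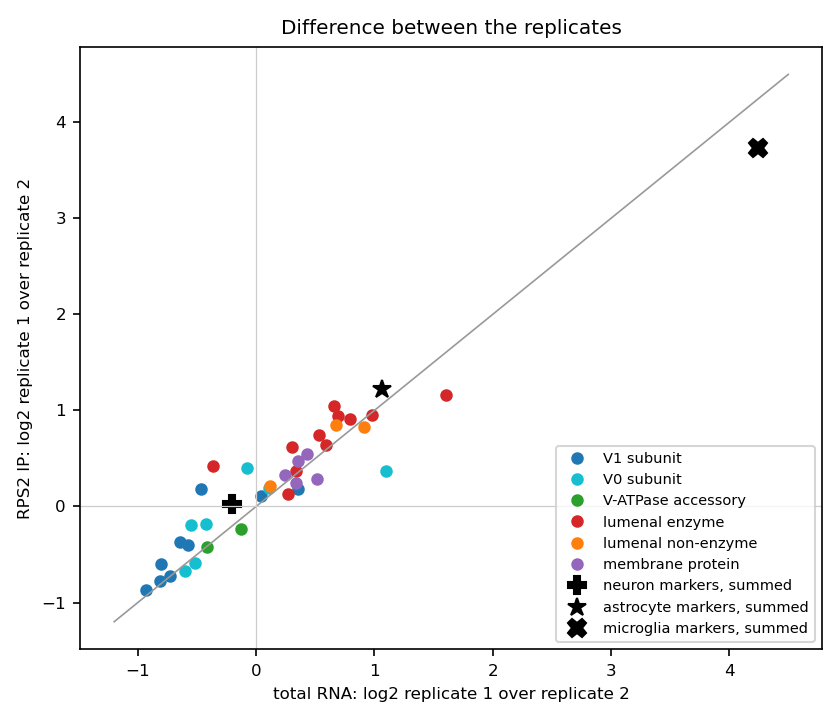
Log2 of replicate 1 over replicate 2 in TMM-scaled CPM for each member, in total RNA (x axis) and RPS2 IP (y axis). Summed cell type markers are in black and the line of equal values in grey. V-ATPase genes gather at the lower left, enzymes and membrane proteins at the upper right, and microglial markers lie far beyond all members.

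Members with short coding sequences had the higher ratios. Coding length was read from the mm10 annotation for 1 principal transcript per gene, and its relation to the ratio was looked at after the ratios were known. Across the 37 members Spearman rho was -0.686 (-0.563 and -0.665 in the pairs), against -0.434 over 12114 genes tested. Once GC content and exonic length were offset, it was -0.512 against -0.283. Coding length itself was not offset. These are descriptions across genes of the same 4 libraries. Of the 12 members with under 1000 coding bases 8 were higher in IP (66.7%), with a median of 0.47, and of the 25 longer ones 6 were higher (24.0%), with a median of 0.11. Over all genes 15.3% of the shorter and 3.04% of the longer were higher, with medians of 0.22 and -0.062, so the members exceeded the background share in both length ranges.

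V-ATPase mRNAs were on the whole the shorter ones, with a median coding length of 898.5 bases against 1389 for the enzymes. Within the V-ATPase 6 of the 9 shorter mRNAs were higher, among them both e subunits of 246 coding bases and Atp6v1g2 of 357, and 3 of the 9 longer ones were. The shorter ones that were not called were Atp6v1f, Atp6v1g1 and Atp6v0c, and Atp6v0c, with 468 coding bases, was the one with a ratio under 0. Among members of 1000 coding bases or more the median was 0.24 for the 9 V-ATPase mRNAs and 0.068 for the 9 enzymes. At the long end stood Npc1 with 3834 bases, Gaa with 2862, Atp6v0a2 with 2571 and Atp6v0a1 with 2517, at ratios from -0.16 to 0.15. In the 19 members outside the V-ATPase, rho with coding length was -0.698 (-0.351 and -0.699 in the pairs, -0.38 with the offset). Their ratio also followed the length of the 3′ UTR (rho = 0.751, against 0.1 over all genes). In the pairs that rho was lower, at 0.626 and 0.496. Ctsl, Ctsb, Scarb2, Npc2 and Lamp2 stood at the long end. In the V-ATPase the ratio did not follow the 3′ UTR (rho = -0.013).

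**Figure D4:**
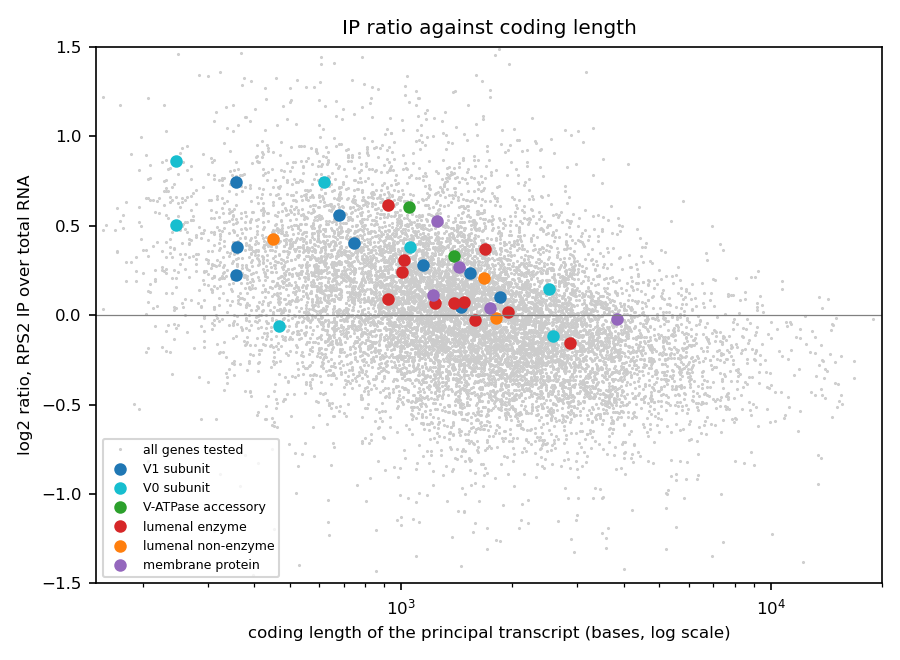
Log2 ratio of IP over total RNA against coding length (log scale) for the members, coloured by role, and for all genes tested in grey. Of all genes, 68 lie outside the axes. Members fall from upper left to lower right along with the cloud, and Atp6v0c lies low in it at the short end.

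The bases around the start codon were read because scanning ribosomes favour a purine 3 bases before the start codon and a G directly after it, the Kozak context. A purine at -3 stood in 34 of 37 members (91.9%), against 85.4% of the 12114 genes. It stood in 14 of the 14 called members, near the share in all genes called higher (718 of 804, 89.3%). A G at +4 stood in 20 members (54.1%), against 52.9% of genes. It stood in 6 of the 14 called members (42.9%), against 50.9% of all genes called higher. The exceptions at -3 were Atp6v1h, Ctsa and Grn, which are among the 23 members not called. The windows below give 9 bases before the start codon and 6 from its first base on, from the mm10 transcripts, with positions -3 and +4 and the start codon in capitals. They are the called mRNAs with the 5 highest ratios, then Gaa, the lowest, then the 3 exceptions. Positions are those of the start codon.
Atp6v0e (chr17:26676475-26676477, plus strand): ggcgcaGgcATGGca
Atp6v0b (chr4:117887234-117887236, minus strand): gccgctGccATGAcg
Atp6v1g2 (chr17:35236764-35236766, plus strand): gtgataAaaATGGcc
Ppt1 (chr4:122836256-122836258, plus strand): attgctAagATGGcg
Atp6ap2 (chrX:12587896-12587898, plus strand): cgtggcAccATGGct
Gaa (chr11:119270133-119270135, plus strand): gctttcAccATGAat
Atp6v1h (chr1:5084451-5084453, plus strand): aaagttTagATGAcc
Ctsa (chr2:164833797-164833799, plus strand): gagctaCacATGAct
Grn (chr11:102430509-102430511, plus strand): gaccgcCagATGCct
Of these 5 called mRNAs, 4 have the G at +4 as well as the purine at -3, and Atp6v0b lacks the G. Gaa has the purine and lacks the G.

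The promoters were read for the core of the CLEAR element, CACGTG, which reads the same on both strands. RefSeq promoters on GRCm38.p6 covered 250 bases before to 50 bases after the start site, and 30 of the 37 members had at least 1, with 35 promoters in all. The core stood in 12 of 30 members (40.0%), against 8.09% of 27025 genes with a promoter and 12.1% of the 9651 tested ones. A longer form, GTCACGTG, CACGTGAC or TCACGTGA on either strand, stood in 9 members (30.0%), against 2.77% and 5.28%. By class the core was found in 6 of 10 enzymes, 4 of 13 V-ATPase genes, 2 of 4 membrane proteins and 0 of 3 lumenal non-enzymes. The windows below, with the core in capitals, are those of Lamp1 and Mcoln1, which held 4 and 2 copies, of 2 enzymes, and of V-ATPase genes with a high and a low ratio.
Lamp1 (chr8:13159124-13159147, plus strand): gccgactggCACGTGaccacatca
Mcoln1 (chr8:3500465-3500488, plus strand): cgccccgctCACGTGaccgcggcg
Ctsd (chr7:142387911-142387934, minus strand): cccgcgtctCACGTGacccgttga
Ctsa (chr2:164833752-164833775, plus strand): gcaaactgtCACGTGatgcagatg
Atp6v0b (chr4:117887351-117887374, minus strand): cgcgggggtCACGTGgggtcggcg
Atp6v1a (chr16:44139376-44139399, minus strand): tttttaaatCACGTGataggctta
Members with the core had a median ratio of 0.088 and members without it 0.37, while over all genes tested the medians were 0.055 and 0.0063. The direction was not the same in every class, and the classes are small. In the V-ATPase the median was 0.57 with the core and 0.40 without it. Only 4 of its 13 genes held the core, with Atp6v0b, Atp6v0d1 and the low-count Atp6v0e called among them. In the enzymes the median was 0.067 with the core and 0.23 without it, and enzymes made up 6 of the 12 members that held it. In the membrane proteins it was 0.075 with the core, in 2 of 4 genes, and 0.40 without it. A match is a string of letters and no evidence of binding, and a member without a match may hold one outside this window.

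Beyond the 37, 69 of 78 other lysosomal genes on 4 further lists passed the filter, and 11 of the 69 were higher in IP and 0 lower, against the 6.63% and 7.55% of all genes given above, with a median of 0.17. At an unadjusted p under 0.05 edgeR put 19 higher and 3 lower, against 12.9% and 13.2% of all genes. With the GC content and length offset 7 were higher. Other hydrolases gave 5 of 33, other membrane proteins 5 of 22, genes of lysosome biogenesis and sorting 1 of 9 and other V-ATPase genes 0 of 5, of which 1 was higher at an unadjusted p under 0.05. Among the membrane proteins were Laptm4a at 0.85 ± 0.12, the tetraspanin Cd63 at 0.71 ± 0.12, Tmem106b at 0.68 ± 0.15, Laptm4b at 0.50 ± 0.11 and the neuronal Lamp5 at 0.47 ± 0.10. Among the hydrolases were the ceramidase Asah1 at 0.62 ± 0.17, Gm2a, the activator that presents ganglioside to hexosaminidase, at 0.46 ± 0.11, and the sulfatase Ids at 0.42 ± 0.11. The cathepsins Ctsk at 1.96 ± 0.46 and Ctso at 1.02 ± 0.31 were called from low levels, with 1.32 and 4.47 CPM on average in total RNA. M6pr, a mannose 6-phosphate receptor that sorts new hydrolases to the lysosome, had 0.74 ± 0.14, while the other sorting receptors Igf2r and Sort1 had -0.11 ± 0.10 and 0.20 ± 0.099 and were not called (adjusted p = 0.51 and 0.18). The abundant hydrolases Lgmn and Smpd1 had ratios of 0.072 ± 0.10 and 0.016 ± 0.10 and were not called (adjusted p = 0.72 and 0.95).

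Some V-ATPase isoforms known from other tissues left no trace in the counts. Atp6v1b1, Atp6v1e2 and Atp6v1g3 had 0 counts in the 4 libraries, as did Lamp3 of dendritic cells, and Atp6v0a4 and Atp6v1c2 had at most 6 and 4 counts in a library.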

How the data were processed

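RPS2 IP and total RNA libraries from primary cortical neurons were analysed from the counts the authors deposited, which are whole-number reads per gene with no normalization. Per the file headers and the study's methods, the authors trimmed single-end reads with cutadapt, aligned them end to end to mm10 with STAR and counted with featureCounts 1.5.3 in stranded mode, leaving out reads at several loci or in several genes. No removal of PCR duplicates was named. The exonic length listed beside the counts was used for levels per kb. Symbols were found for 31011 of 31053 gene identifiers.

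Genes were kept by filterByExpr, scaled by TMM and tested in R 4.3.3 with edgeR 4.0.16 by its quasi-likelihood test (two-sided). P-values were adjusted by Benjamini-Hochberg across the 12336 genes. The replicate number entered as a block, since total RNA was taken from the samples that went into the IP, and same-numbered libraries deviated together from their groups (Pearson r = 0.733 across 12336 genes). This fit leaves 1 residual degree of freedom, and its prior degrees of freedom were infinite, so all genes share 1 trend of dispersion. Ratios within a pair are differences of log2 CPM with a prior count of 2. Class medians and correlations across genes are descriptions with no test. Alternatives were the fit without the block, other scaling, other filters, a threshold of 0.01, DESeq2 1.42.0, limma-voom (limma 3.58.1), an offset for GC content and length, and leaving out a replicate. GC content was known for 12328 genes. Shared sequence was sought with blastn 2.17.0 at 95% identity over at least 50 bases. Data were also simulated with the replicate difference kept and with noise drawn from the dispersion trend of the blocked fit. On these data, with 12160 genes, the blocked fit found 73 of 96 genes changed 2-fold and 30 of 98 changed 1.5-fold. It made 5 false calls, and the fit without the block found 0 of the changed genes. The setting favours the blocked fit, so these numbers cannot give the error rate on the real libraries.

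The members, lists and tests were chosen with earlier results of these data known. Members could all be named, and other lysosomal genes were named where called, at most 4 per list by size of the ratio, or where they averaged over 100 CPM. Atp6v0a4, Atp6v1c2, Atp6v1b1, Atp6v1e2, Atp6v1g3 and Lamp3 were named outside that rule for their counts. Values of 1 gene that the rule covers are not reported here.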

Additional observations from a re-analysis of the deposited data

How the results depend on the processing

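With no replicate block, the calls fell to 0 for the members and to 0 higher and 0 lower for all genes, and the pairing changed medians little (membrane proteins 0.12). The other settings kept the block. Scaling by total counts alone gave 7 members and 283 genes higher and medians of 0.15 for the members, 0.27 for the V-ATPase and 0.029 for membrane proteins. Median-ratio scaling gave 0.34 and 0.093 for the last 2, no low-count filter 0.38 and 0.13, and at least 10 counts in every library 0.12 for membrane proteins. DESeq2 called 5 members, with 158 genes higher and 382 lower, and medians of 0.34 and 0.093 for the V-ATPase and membrane proteins. DESeq2 left 7653 of the 12336 genes without an adjusted p, so its counts of calls come from the remaining genes. Among those without one were 3 members, of which 1 was called in edgeR. The GC content and length offset gave 9 members, 469 genes higher and 383 lower, and medians of 0.16 for the members, 0.19 for the V-ATPase and 0.14 for membrane proteins, with V-ATPase minus enzymes at 0.12 and V1 minus V0 at -0.046. At an adjusted p under 0.01 the calls were 12 members, 452 genes higher and 602 lower. The causes were not tested. Leaving out 1 replicate leaves 1 pair and no test, and the medians then ranged from 0.30 to 0.31 for the V-ATPase, 0.079 to 0.23 for the enzymes and 0.16 to 0.17 for membrane proteins, with V-ATPase minus enzymes from 0.079 to 0.22. Under the 9 alternatives that kept both replicates, Atp6v0b, Atp6v1e1 and Atp6v1g2 kept their calls in 8, all but the fit with no block, Atp6ap2, Atp6v0e2, Lamp2 and Ppt1 in 7, Npc2 and Tpp1 in 6, and Atp6ap1, Atp6v0d1, Atp6v0e, Atp6v1d and Ctsb in 5. Scarb2 was called at a minimum of 10 counts (adjusted p = 0.046). No called ratio changed sign in any of these settings. Leaving out the 5 members that share over 10% of a transcript with another gene gave 13 of 32 higher and a median of 0.24.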
